A study of Mus musculus with 16 samples.

Results

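A set of 10 genes of the melanocyte pigment programme was followed through 16 B16-BL6 tumours. They are Tyr, Tyrp1, Dct, Pmel, Mlana, Oca2, Slc45a2, Mc1r, Mitf and Sox10, taken by their names in the array annotation. They had 13 probes on 40 spots, of 41174 probes and 43379 spots in all, and gave 10 of the 15399 genes tested. B16-BL6 is an invasive subline of the B16 mouse melanoma, and the tumours grew in male C57BL/6J mice aged 8 weeks. The control group had no treatment, the ALA group had 5-aminolevulinic acid at 50 mg per kg given locally, the X-ray group had fractionated irradiation, and the ALA plus X-ray group, called the combined group from here on, had the same dose of ALA before its irradiation. Each group had 4 tumours, each hybridised to a 1-colour whole-genome mouse array. The series asks what ALA adds to radiotherapy. The radiation dose, the number of fractions and the time of sampling are not given in the sources used here. Each sample was a preparation of whole tumour, so fewer cells of a type and less RNA per cell cannot be told apart. P-values set a difference of group means against the spread between these preparations.

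Melanin is made inside melanosomes from tyrosine, by tyrosinase (Tyr) and its relatives Tyrp1 and Dct, on a fibrillar matrix of Pmel, while Oca2 and Slc45a2 set the ion balance and pH that tyrosinase needs. Mitf, a helix-loop-helix leucine zipper factor, binds E-box sequences in the promoters of these genes, and Sox10 acts upstream of it on the Mitf promoter and beside it on Dct. Mc1r is the surface receptor for melanocortins, and its signal reaches the Mitf promoter through cAMP and the factor Creb1. B16 melanoma cells carry this programme and are often visibly black. ALA is the precursor from which cells build heme through protoporphyrin IX, a photosensitiser.

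The upstream sequence of 3 enzyme genes and of Mitf is shown because Tyrp1 and Mitf are the members whose levels changed, and because Mitf and its relatives bind the element marked in the enzyme genes. The RefSeq promoter table (build GRCm38.p6) held 8 promoters for 6 of the 10 members. Each line gives the 250 bases before the annotated start, 5′ to 3′ on the gene's strand. Capitals mark the M-box of Tyr, AGTCATGTGCT, in Tyr (chr7:87493513-87493762, minus strand) and Tyrp1 (chr4:80833963-80834212, plus strand), its core TCATGTG on either strand in Dct (chr14:118052247-118052496, minus strand), and the cAMP response element TGACGTCA in the third Mitf promoter of the table (chr6:97991533-97991782, plus strand).
Tyr: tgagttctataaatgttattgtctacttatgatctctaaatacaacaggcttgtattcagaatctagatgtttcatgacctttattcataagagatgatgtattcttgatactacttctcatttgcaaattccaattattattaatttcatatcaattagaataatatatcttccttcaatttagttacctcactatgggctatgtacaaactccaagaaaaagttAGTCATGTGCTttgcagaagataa
Tyrp1: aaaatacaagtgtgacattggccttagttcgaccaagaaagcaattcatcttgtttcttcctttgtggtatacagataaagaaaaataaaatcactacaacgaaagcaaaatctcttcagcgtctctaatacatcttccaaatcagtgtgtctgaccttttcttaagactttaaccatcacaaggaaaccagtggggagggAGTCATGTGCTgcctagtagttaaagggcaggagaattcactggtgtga
Dct: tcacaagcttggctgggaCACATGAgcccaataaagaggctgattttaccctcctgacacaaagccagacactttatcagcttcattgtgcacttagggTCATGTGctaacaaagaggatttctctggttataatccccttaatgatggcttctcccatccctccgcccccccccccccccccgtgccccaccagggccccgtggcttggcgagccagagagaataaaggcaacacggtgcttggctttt
Mitf: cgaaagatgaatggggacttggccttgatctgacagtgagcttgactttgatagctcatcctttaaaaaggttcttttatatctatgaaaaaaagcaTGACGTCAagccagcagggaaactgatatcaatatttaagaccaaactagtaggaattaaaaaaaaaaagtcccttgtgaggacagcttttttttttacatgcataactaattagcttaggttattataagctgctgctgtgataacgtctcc

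The full M-box stood at -24 to -14 in Tyr and at -49 to -39 in Tyrp1, counted back from the annotated start. These 11 letters, read from the Tyr promoter as the core TCATGTG with 2 bases on each side, were found in 7 of 32851 promoter windows of 250 bases (0.0213%), with both strands searched. The core TCATGTG, which lies within the M-box, occurred in Dct at -232 to -226 on the other strand and at -151 to -145, and in Mc1r at -52 to -46, against 3.25% of all windows. The shorter E-box CATGTG, which the core holds, was found in 12.3% of windows and also in Oca2 at -186 to -181 and in Mc1r at -62 to -57. Another E-box, CACGTG, was found in 6.02% of windows and in none of the 8 promoters of the members. The cAMP response element lay at -153 to -146 of the third Mitf promoter, against 1.55% of windows. These matches describe letters and are no measure of binding.

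Levels are given as the log2 processed signal minus the log2 75th percentile of the array, so a level of 0 is the 75th percentile, and the 4 values of a group follow replicate numbers 1 to 4. Each replicate number stood for 1 slide with 1 array of every group and a scan number of its own, while an array's place on its slide was fixed by group, and those 2 cannot be told apart. The 75th percentile signal of control arrays lay between 213 and 408, that of ALA arrays between 217 and 331, that of X-ray arrays between 224 and 478, and that of combined arrays between 366 and 521. All 13 probes were well above background on all 16 arrays and none was saturated. Tyr, Tyrp1 and the main Mitf probe had 10 spots on each array, with a median spot-to-spot SD of 0.06, 0.05 and 0.04, against a within-group SD between tumours of 0.29, 0.15 and 0.34. The other 10 probes had 1 spot. Where a gene had more than 1 probe, the brightest stood for it. Differences were tested with limma over all genes, and a change is called at a Benjamini-Hochberg adjusted p under 0.05.

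**Figure D1:**
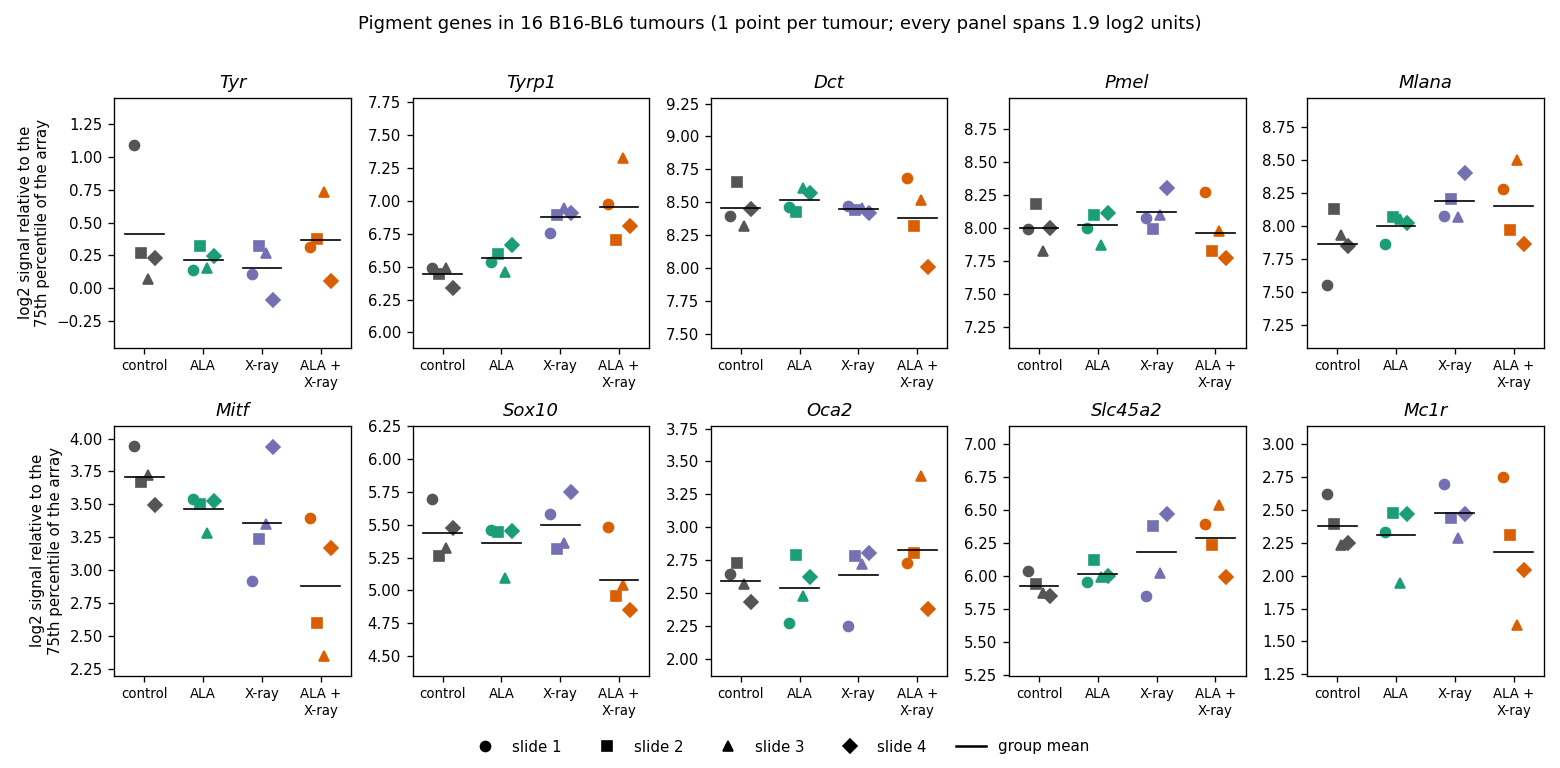
Level of each pigment gene in 16 tumours (y axis, log2 signal relative to the 75th percentile of the array; x axis, treatment group; 1 point per tumour, marker by slide, bar for the group mean of 4). Tyrp1 in the ALA plus X-ray tumours lies between 6.70 and 7.33, above all control tumours, and Mitf between 2.35 and 3.40, below all control tumours.

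In tumours given ALA before irradiation, Tyrp1 was 1.43-fold higher and Mitf 0.563 of its level in control, and the other 8 members were not called. Thus 1 of 10 members rose and 1 fell, against 9.77% of all genes that rose and 15.1% that fell in that comparison (24.9% in either direction). Against ALA alone Tyrp1 rose as well, the only call among the 10, where 10.7% of all genes rose and 13.4% fell (24.1%). No member was called between X-ray and control, where 1.99% of genes rose and 1.38% fell (3.37%), nor between ALA and control (0%). None was called between the combined group and X-ray, where 1.3% rose and 0.766% fell (2.07%), or in the interaction of ALA and X-ray, with 0.896% higher and 0.331% lower (1.23%). At an unadjusted p under 0.05, limma gave 1, 0, 1 and 0 members in these last 4 comparisons, with 3375, 961, 3566 and 2939 genes overall. The median difference of the 10 members was 0.08 for X-ray minus control (all genes -0.02), -0.02 for ALA minus control (-0.003) and -0.05 for combined minus X-ray (-0.08). It was -0.04 for combined minus control (-0.08) and 0.05 for combined minus ALA (-0.13). Tyrp1 and Mitf thus changed as single genes in opposite directions, and calls among the 10 were no more frequent than among all genes.

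**Figure D2:**
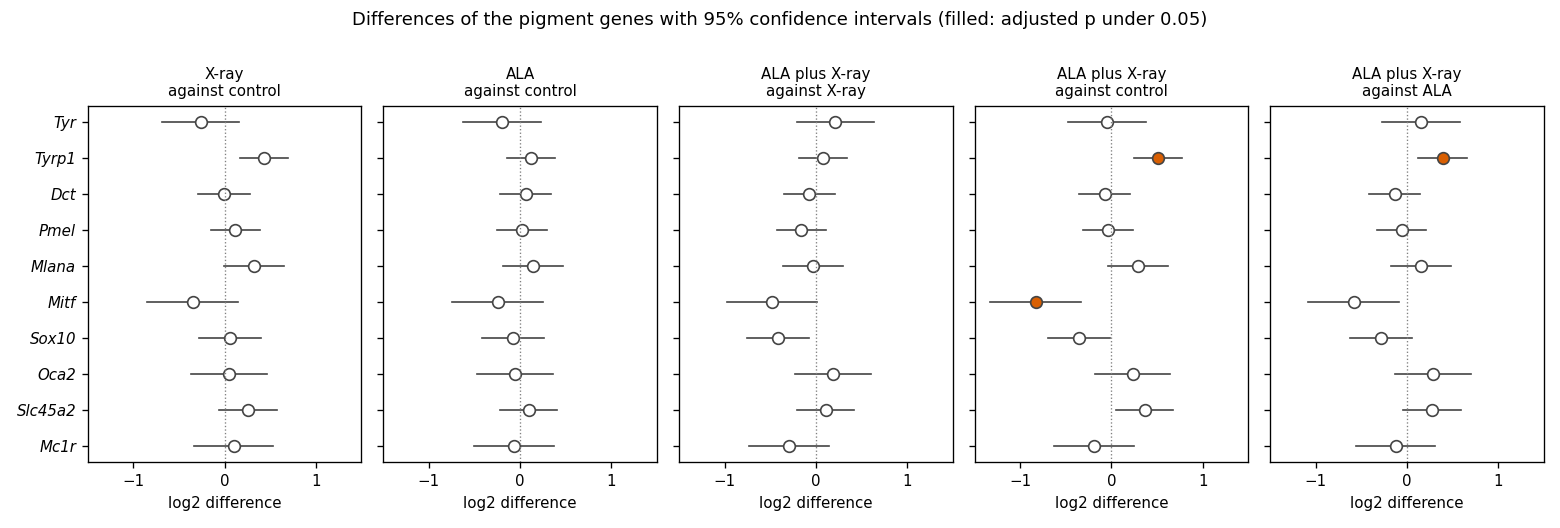
Difference of each pigment gene in 5 comparisons (x axis, log2 difference, the first-named group minus the second; y axis, gene), with 95% confidence intervals from limma. The filled points are Tyrp1 at 0.51 and Mitf at -0.83 in ALA plus X-ray against control, and Tyrp1 at 0.39 in ALA plus X-ray against ALA. The last 3 comparisons share their ALA plus X-ray arrays, and 3 of the 5 share the control arrays.

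Of the enzymes, Tyrp1 oxidises an indole intermediate of eumelanin synthesis and stabilises tyrosinase. It was read by a probe at chr4:80497125-80497184 on the plus strand (mm9, as for all probes). Its level was 6.49, 6.44, 6.49 and 6.34 in control tumours and 6.54, 6.60, 6.46 and 6.66 in ALA tumours. It was 6.75, 6.89, 6.95 and 6.91 in X-ray tumours and 6.97, 6.70, 7.33 and 6.81 in combined tumours. Every irradiated tumour, with or without ALA, lay above every tumour of the 2 groups that were not irradiated. How often all genes split in this way was not counted. The combined group exceeded control by 0.51 (SE 0.12, 95% interval 0.25 to 0.78, adjusted p = 0.0123) and ALA by 0.39 (SE 0.12, 95% interval 0.12 to 0.65, adjusted p = 0.0354), on 4 of 4 slides each. X-ray exceeded control by 0.43 (95% interval 0.17 to 0.70), a difference on 4 of 4 slides with no overlap that missed the threshold (adjusted p = 0.0658). Where 2 groups do not overlap, the slide count follows from that and adds nothing. Groups that do not overlap were common among all genes: 18.3% of them for X-ray and control, 20.6% for combined and control, and 20.7% for combined and ALA, but 5.7% for ALA and control and 6.4% for combined and X-ray. The combined group and X-ray differed by 0.08 (95% interval -0.19 to 0.34), and ALA and control by 0.12 (-0.14 to 0.39). The interaction was -0.05 (95% interval -0.42 to 0.33, adjusted p = 0.907). With each array scaled to its median the difference from control was 0.45 (adjusted p = 0.119), and with the model limited to the 8 arrays of the pair it was 0.51 (adjusted p = 0.0703). Without combined replicate 3, the highest tumour, the difference from ALA was 0.26 (adjusted p = 0.0836); it also missed the threshold without each of the 4 ALA tumours (0.35 to 0.42, adjusted p = 0.0565 to 0.0816), and with array weights it was 0.20 (adjusted p = 0.102).

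Tyr, which encodes tyrosinase, the rate-limiting enzyme of melanin synthesis, was not called in any comparison. It was read by a probe at chr7:94576265-94576324 on the minus strand. Its level was 1.09, 0.27, 0.07 and 0.23 in control, 0.14, 0.32, 0.15 and 0.25 in ALA, 0.11, 0.32, 0.27 and -0.09 in X-ray, and 0.31, 0.37, 0.73 and 0.05 in combined tumours. Control replicate 1 was the highest of all 16 tumours and the groups overlapped throughout. The differences ran from -0.26 (X-ray against control, 95% interval -0.69 to 0.16) to 0.22 (the combined group against X-ray, -0.21 to 0.64), with an adjusted p of at least 0.475 in the 5 comparisons. In the combined group against control the difference was -0.05 (95% interval -0.47 to 0.38).

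Dct, dopachrome tautomerase, acts on the intermediate between the steps of Tyr and Tyrp1, and its probes did not give the same picture. On the main probe, at chr14:118438837-118438896 on the minus strand, the level was 8.40, 8.65, 8.32 and 8.45 in control, 8.46, 8.42, 8.61 and 8.57 in ALA, 8.47, 8.44, 8.46 and 8.42 in X-ray, and 8.68, 8.32, 8.51 and 8.01 in combined tumours. The 4 X-ray tumours lay close together and the combined tumours spanned all the others. On that probe X-ray differed from control by -0.01 (95% interval -0.29 to 0.27) and the combined group by -0.08 (-0.36 to 0.21). On the second probe, at chr14:118412048-118412105 and nearer the 3′ end of the transcript, levels were 7.73, 8.32, 8.04 and 8.09 in control, 8.18, 8.24, 8.50 and 8.34 in ALA, 8.26, 8.39, 8.35 and 8.74 in X-ray, and 8.32, 8.09, 8.60 and 8.01 in combined tumours. Control replicate 1 was the lowest there and X-ray replicate 4 the highest. There X-ray differed from control by 0.39 (95% interval 0.05 to 0.74, adjusted p = 0.179 over 21632 probes) and the combined group by 0.21 (-0.13 to 0.56). Neither probe was called in any comparison.

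Pmel, whose cleaved fragments form the fibrils on which melanin settles, was read by a probe that spans 958 bases at chr10:128156029-128156986 on the plus strand and so crosses an intron. It had levels of 7.99, 8.18, 7.82 and 8.00 in control, 8.00, 8.10, 7.87 and 8.12 in ALA, 8.07, 8.00, 8.10 and 8.31 in X-ray, and 8.27, 7.83, 7.98 and 7.77 in combined tumours. The groups overlapped in every comparison. Its whole range over 16 tumours was 0.54, the smallest of the 13 probes, and its largest difference was -0.16 (the combined group against X-ray, 95% interval -0.43 to 0.12, adjusted p = 0.478). Mlana, a melanosomal membrane protein (Melan-A) that takes part in the maturation of Pmel, had its probe at chr19:29782839-29782898 on the plus strand. Its level was 7.55, 8.13, 7.93 and 7.85 in control, 7.86, 8.07, 8.05 and 8.03 in ALA, 8.07, 8.21, 8.07 and 8.41 in X-ray, and 8.28, 7.97, 8.50 and 7.86 in combined tumours. Control replicate 1 was its lowest tumour. X-ray exceeded control by 0.32 on 4 of 4 slides (95% interval -0.01 to 0.65, adjusted p = 0.237) and the combined group by 0.29 on 3 of 4 slides (-0.04 to 0.62, adjusted p = 0.174).

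The transporters were not called either. Slc45a2, a melanosomal transporter whose loss gives pale coats, had its probe at chr15:10957641-10957700 on the plus strand. It was at 6.04, 5.94, 5.87 and 5.85 in control, 5.95, 6.12, 5.99 and 6.00 in ALA, 5.84, 6.38, 6.02 and 6.47 in X-ray, and 6.39, 6.23, 6.54 and 5.99 in combined tumours. Of the combined tumours only replicate 4 lay below a control tumour. The difference from control was 0.37 on 4 of 4 slides (95% interval 0.05 to 0.68, adjusted p = 0.0812), and it passed the threshold in 5 of 30 alternatives, among them a normexp background (0.60, adjusted p = 0.00825) and the fit without combined replicate 4 (0.46, adjusted p = 0.0464). Oca2, an anion channel that raises melanosome pH, had its probe at chr7:63791667-63791726 on the plus strand. It was at 2.65, 2.73, 2.57 and 2.43 in control, 2.27, 2.79, 2.47 and 2.62 in ALA, 2.25, 2.78, 2.72 and 2.81 in X-ray, and 2.73, 2.81, 3.39 and 2.37 in combined tumours. The highest was combined replicate 3. Its largest difference was 0.29 (the combined group against ALA, 95% interval -0.13 to 0.70, adjusted p = 0.286).

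Mc1r, the melanocortin receptor, had its probe at chr8:125932417-125932476 on the plus strand. It was at 2.62, 2.39, 2.24 and 2.25 in control, 2.33, 2.48, 1.95 and 2.47 in ALA, 2.70, 2.44, 2.29 and 2.47 in X-ray, and 2.75, 2.31, 1.63 and 2.05 in combined tumours. The combined tumours held both the highest value (replicate 1) and the lowest (replicate 3) of the 16. The group differed from control by -0.19 (95% interval -0.63 to 0.24, adjusted p = 0.519) and from X-ray by -0.29 (-0.73 to 0.14, adjusted p = 0.404).

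Mitf, the factor at the head of the programme, was lower in combined tumours after scaling. On its main probe, at chr6:97968386-97968445 on the plus strand, the level was 3.94, 3.67, 3.73 and 3.50 in control and 3.54, 3.50, 3.28 and 3.52 in ALA tumours. It was 2.92, 3.24, 3.35 and 3.93 in X-ray tumours and 3.40, 2.60, 2.35 and 3.17 in combined tumours. No combined tumour reached the lowest control tumour, while the X-ray tumours overlapped every other group. Of all genes, 20.6% did not overlap between combined and control. The combined group differed from control by -0.83 (SE 0.23, 95% interval -1.33 to -0.33, adjusted p = 0.0214), with a lower level on all 4 slides. Before scaling, the signal was 3826, 2708, 5397 and 2470 in control and 3868, 3164, 2245 and 4238 in combined tumours. The fall was thus seen only after scaling. Against ALA the difference was -0.58 (95% interval -1.08 to -0.08, adjusted p = 0.0796) and against X-ray -0.48 (-0.98 to 0.02, adjusted p = 0.231). X-ray alone differed from control by -0.35 (95% interval -0.85 to 0.15) and ALA alone by -0.25 (-0.75 to 0.25). The interaction was -0.23 (95% interval -0.94 to 0.47, adjusted p = 0.722). The call against control was lost without control replicate 1 (-0.75, adjusted p = 0.0623), control replicate 2 (-0.84, 0.05, just above the threshold), combined replicate 2 (-0.74, 0.0631) or combined replicate 3 (-0.65, 0.0665), and with the model limited to the 8 arrays of the pair (adjusted p = 0.0609).

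**Figure D3:**
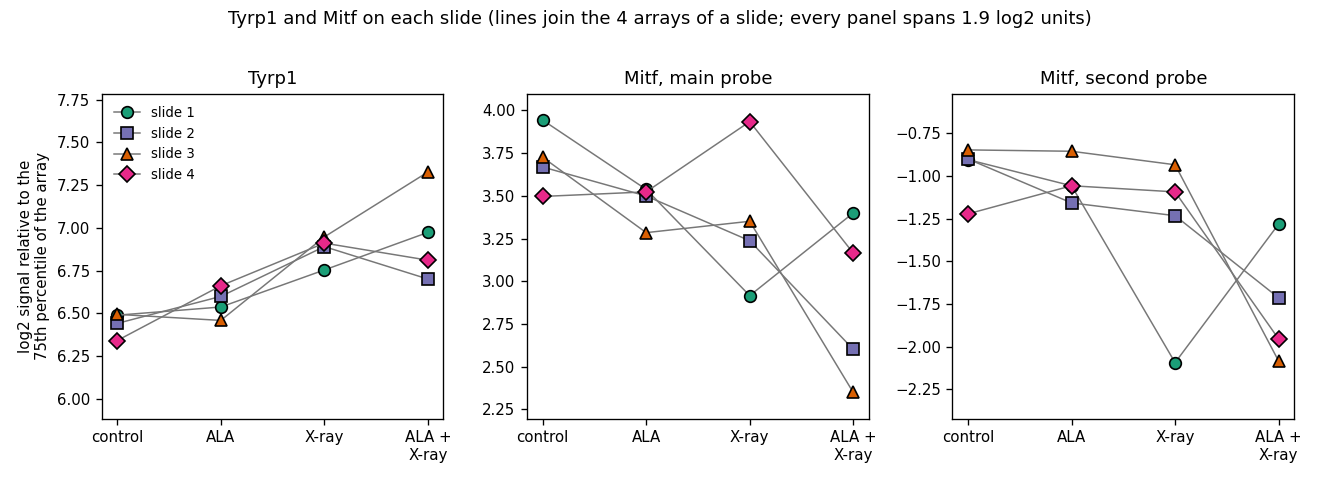
Tyrp1 and both Mitf probes by group (x axis), with a line for each slide; the y axis is the log2 signal relative to the 75th percentile of the array. Tyrp1 is higher and both Mitf probes are lower in ALA plus X-ray than in control on all 4 slides, while on slide 1 X-ray has a lower Mitf value than ALA plus X-ray.

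A second Mitf probe read another stretch of the same transcript, as did second probes of Sox10 and Dct. Of the 6 probes of these genes, the one nearer the 5′ end of each transcript is given, with its mm9 position from the array annotation, to show which stretch was measured. All 6 held at least 1 reading frame with no stop codon, but so did every other probe except that of Tyrp1. An open frame of this length does not mark a coding stretch. Those given are the second Mitf probe (chr6:97956187-97960443, plus strand, a span of 4257 bases for a probe of 60, so that it crosses an intron), the second Sox10 probe (chr15:78986883-78986942, minus strand) and the main Dct probe (chr14:118438837-118438896, minus strand).
Mitf probe: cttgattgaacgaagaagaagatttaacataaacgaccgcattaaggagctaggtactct
Sox10 probe: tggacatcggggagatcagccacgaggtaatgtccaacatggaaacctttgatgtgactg
Dct probe: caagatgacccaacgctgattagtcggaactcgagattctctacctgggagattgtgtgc

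The second Mitf probe gave levels of -0.90, -0.90, -0.85 and -1.22 in control, -1.06, -1.16, -0.86 and -1.06 in ALA, -2.09, -1.23, -0.93 and -1.09 in X-ray, and -1.28, -1.71, -2.08 and -1.95 in combined tumours. The combined group lay below control and below ALA in all tumours, and X-ray replicate 1 was as low as the lowest of them. The difference from control was -0.79 (SE 0.23, 95% interval -1.27 to -0.31, adjusted p = 0.0244 over 21632 probes), close to the -0.83 of the main probe. Against ALA it was -0.73 (SE 0.23, 95% interval -1.21 to -0.24, adjusted p = 0.0339 over the same probes). The second Mitf probe was far dimmer than the main one, and no normexp fit is given for it. Its signal before scaling was 93.8 to 227 in control and 104 to 159 in combined tumours. On the main probe it was 2470 to 5397 and 2245 to 4238. These ranges overlapped on both probes, and the fall against control was seen only after scaling. The probes share the RNA of the same tumours and are not replicates of each other.

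Sox10, the neural crest factor that switches on Mitf, did not pass on its main probe, at chr15:78985505-78985564 on the minus strand. Its level was 5.70, 5.26, 5.32 and 5.47 in control, 5.46, 5.45, 5.09 and 5.45 in ALA, 5.58, 5.32, 5.36 and 5.75 in X-ray, and 5.48, 4.95, 5.04 and 4.85 in combined tumours. In 3 of the combined tumours Sox10 lay below every tumour of the other groups, and replicate 1 lay among the others. The main probe differed by -0.36 from control (95% interval -0.70 to -0.02, adjusted p = 0.111) and by -0.42 from X-ray (-0.76 to -0.08, adjusted p = 0.143). Without combined replicate 1 these were -0.49 (adjusted p = 0.0173) and -0.55 (adjusted p = 0.0206). The second probe was at 0.09, -0.42, -0.57 and -0.28 in control, -0.43, -0.45, -0.76 and -0.36 in ALA, -0.21, -0.41, -0.14 and -0.42 in X-ray, and -0.46, -0.93, -1.25 and -1.52 in combined tumours. It fell against control by 0.75 on the log2 scale (SE 0.20, 95% interval -1.18 to -0.31, adjusted p = 0.0200 over 21632 probes), though replicate 1 overlapped the control tumours. Against X-ray all 4 tumours were lower, with a difference of -0.74 (adjusted p = 0.0716). The second Sox10 probe was far dimmer than the main one, and no normexp fit is given for it. Its signal before scaling was 159 to 275 in control and 164 to 273 in combined tumours. Those ranges were nearly the same, so the fall against control on this probe was seen only after scaling. On the main probe the signal was 8163 to 16310 in control and 13641 to 16402 in combined tumours.

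**Figure D4:**
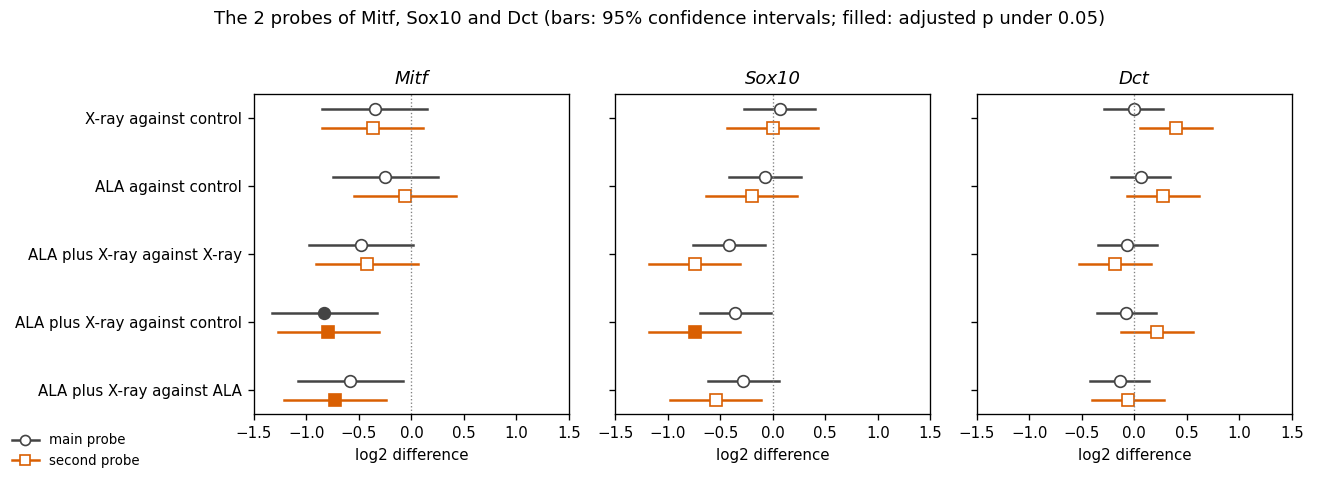
Differences of Mitf, Sox10 and Dct on the main probe (circles) and the second probe (squares) in 5 comparisons (x axis, log2 difference with 95% confidence interval; y axis, comparison). Both Mitf probes lie at about the same place in ALA plus X-ray against control (-0.83 and -0.79), those of Sox10 differ in size (-0.36 and -0.75), and those of Dct differ in X-ray against control (-0.01 and 0.39).

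Set against each other on each array, Tyrp1 and Mitf moved apart, and this measure does not change with the percentile used to scale the array. The change in the Tyrp1 minus Mitf value between groups is meant here, since levels of different probes cannot be compared. The value was 2.54, 2.77, 2.77 and 2.84 in control, 3.00, 3.10, 3.17 and 3.14 in ALA, 3.84, 3.65, 3.60 and 2.98 in X-ray, and 3.57, 4.10, 4.98 and 3.65 in combined tumours. Every treated tumour of the 12 lay above every control tumour, and the means were 2.73, 3.10, 3.52 and 4.07. With the second Mitf probe, control tumours lay between 7.34 and 7.56, ALA tumours between 7.31 and 7.76, X-ray tumours between 7.88 and 8.85 and combined tumours between 8.26 and 9.41, so that ALA and control overlapped there. Because both genes were picked out by these same comparisons, the values are a description with no test.

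Of 27 genes for melanosome biogenesis, transport and ion balance, 25 were measured, and 2 rose and 0 fell in the combined group against control, where 9.77% of all genes rose and 15.1% fell. Their median difference was 0.01 (all genes -0.08). The larger rise was of Gpnmb, a melanosome glycoprotein that macrophages also make. Gpnmb was at 5.49, 5.41, 5.50 and 5.35 in control, 5.65, 5.64, 5.05 and 5.40 in ALA, 6.22, 6.43, 5.95 and 6.32 in X-ray, and 6.74, 6.59, 6.38 and 6.20 in combined tumours. Every irradiated tumour lay above every tumour that was not irradiated, again with no count of such splits among all genes. Gpnmb rose by 1.04 in the combined group against control (2.06-fold, SE 0.16, adjusted p = 0.0021), by 1.05 against ALA (adjusted p = 0.0020) and by 0.79 in X-ray against control (SE 0.16, adjusted p = 0.0244). Hps6, a subunit of a complex that forms lysosome-related organelles, rose by 0.38 against control (SE 0.10, adjusted p = 0.0153), and Mlph, which links melanosomes to myosin, rose by 0.56 against ALA (SE 0.18, adjusted p = 0.0372). In X-ray against control 1 of the 25 rose (Gpnmb) and none fell, beside 1.99% and 1.38% of all genes. In the combined group against ALA 2 rose and none fell (10.7% and 13.4% of all genes). No gene of the list was called in ALA against control, in the combined group against X-ray or in the interaction. The Gpnmb call in X-ray against control missed the threshold without control replicate 2 or 4 or X-ray replicate 1, 2 or 4 (0.73 to 0.80, adjusted p = 0.0675 to 0.0803), and the Mlph call without ALA replicate 3 or 4 or combined replicate 1, 2 or 3 (0.34 to 0.59, adjusted p = 0.0528 to 0.0801).

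Among 24 receptors, ligands and lineage factors, 21 were measured. In the combined group against control 2 rose and 4 fell (median -0.14, all genes -0.08), and against ALA 2 rose and 6 fell (median -0.16, all genes -0.13). Over all genes, 24.9% were called in the former comparison and 24.1% in the latter. Pax3, which acts with Sox10 on the Mitf promoter, was at 1.93, 1.68, 1.57 and 1.38 in control, 1.55, 1.72, 1.20 and 1.62 in ALA, 0.58, 0.89, 1.07 and 1.13 in X-ray, and 0.99, 0.41, -0.01 and 0.11 in combined tumours. All irradiated tumours lay below all others, a split that was not counted among all genes. Pax3 fell by 1.27 on the log2 scale in the combined group against control (SE 0.21, adjusted p = 0.0028) and by 1.15 against ALA (SE 0.21, adjusted p = 0.0037), and it held both calls without each of the 16 tumours. In X-ray against control its difference was -0.73 (adjusted p = 0.0670). Tfeb, a Mitf relative that governs lysosome genes, fell by 0.93 against control (SE 0.20, adjusted p = 0.0073) and by 0.80 against ALA (adjusted p = 0.0134). There was no overlap in either comparison, as for 20.6% and 20.7% of all genes. With a normexp background the difference of Tfeb from control was -0.55 (adjusted p = 0.0243).

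Sox9, a relative of Sox10 that marks less differentiated neural crest cells, rose. It was at -2.62, -4.34, -3.21 and -2.92 in control, -2.24, -2.55, -2.56 and -2.53 in ALA, -1.69, -1.80, -2.56 and -1.73 in X-ray, and -1.58, -0.97, -0.31 and -1.33 in combined tumours, and was well above background on 15 of 16 arrays. All combined tumours lay above all others, and how many of all genes did so was not counted. Its difference was 2.22 in the combined group against control (SE 0.34, adjusted p = 0.0021), 1.42 against ALA (SE 0.34, adjusted p = 0.0118) and 1.33 in X-ray against control (SE 0.34, adjusted p = 0.0485). With a normexp background the same differences were 0.87 (adjusted p = 0.00878), 0.70 (adjusted p = 0.0255) and 0.36 (adjusted p = 0.382). Zeb2, a zinc finger factor of differentiated melanocytes, fell by 0.35 on the log2 scale in the combined group against control (adjusted p = 0.0335) and by 0.42 in X-ray against control (adjusted p = 0.0497), and the former was -0.13 with a normexp background (adjusted p = 0.417). Kit, the receptor for stem cell factor, fell by 0.86 against ALA (SE 0.25, adjusted p = 0.0235), and Creb1, which binds the cAMP response element, by 0.47 (SE 0.13, adjusted p = 0.0187).

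Tfec and Irf4 were near background in some groups. Tfec, the Mitf relative of macrophages, was well above background on all 4 combined arrays and on 0 ALA arrays (adjusted p = 0.0040). With dim ALA values raised to the lowest level well above background on their array, it was 2.13-fold higher. Against control, where 1 array was above background, it passed (adjusted p = 0.0310), but the fitted difference is no measured fold. With a normexp background Tfec passed in neither comparison. The log2 differences were then 0.35 against ALA and 0.20 against control (adjusted p = 0.180 and 0.462). The 2.13-fold is therefore no lower bound under that background. Irf4, a partner of Mitf on the Tyr gene, was above background on 4 control and 2 combined arrays and differed by -1.56 (adjusted p = 0.0481), or by -0.79 with a normexp background (adjusted p = 0.0307). Several calls of this list depended on single tumours. Against control, Tfec and Zeb2 were lost without control replicate 1 or 2 or combined replicate 2 or 3, and Tfec also without combined replicate 4 (adjusted p up to 0.0956 and 0.104). Irf4 was lost without any of 12 tumours, all 4 control tumours among them (up to 0.114). Against ALA, Kit and Creb1 were lost without ALA replicate 4 or combined replicate 2, and Kit also without ALA or combined replicate 3 (up to 0.0726 and 0.0559). Between X-ray and control, Zeb2 was lost without any of 14 tumours and Sox9 without any of 13, each control tumour included (up to 0.133 and 0.126).

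**Figure D5:**
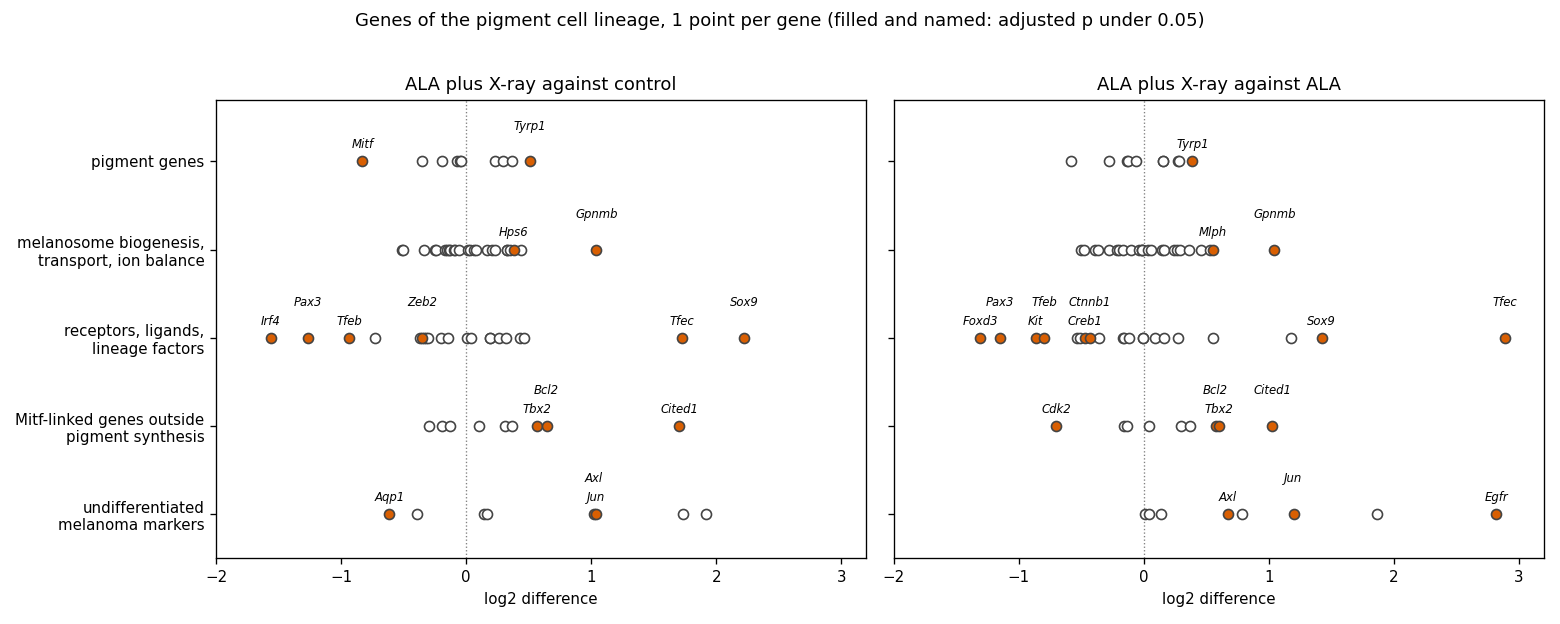
Differences of every measured gene in 5 lists of the pigment cell lineage (x axis, log2 difference; y axis, list), in ALA plus X-ray against control and against ALA; filled, named points passed at an adjusted p under 0.05. Pax3 at -1.27 and Sox9 at 2.22 are further from 0 than any pigment gene, and of the named genes Sox9, Tfec, Foxd3, Irf4 and Egfr were not above background on every array, so that their places rest in part on dim signals.

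Of 10 genes linked to Mitf outside pigment synthesis 9 were measured, and 3 rose in the combined group against control while none fell (median 0.31, all genes -0.08), beside 9.77% and 15.1% of all genes. Mitf itself was lower in this comparison. Cited1, a transcription cofactor of pigment cells, was at 4.62, 3.71, 3.96 and 3.34 in control, 5.09, 4.21, 4.30 and 4.76 in ALA, 6.23, 5.72, 4.77 and 5.71 in X-ray, and 5.32, 5.85, 5.76 and 5.54 in combined tumours. It lay higher in all X-ray and all combined tumours than in any control tumour. Of all genes, 18.3% did not overlap between X-ray and control and 20.6% between combined and control. Cited1 rose by 1.70 in the combined group against control (3.26-fold, SE 0.31, adjusted p = 0.0044), by 1.70 in X-ray against control (SE 0.31, adjusted p = 0.0208) and by 1.03 in the combined group against ALA (adjusted p = 0.0303). Bcl2, the survival gene, rose by 0.64 against control (SE 0.16, adjusted p = 0.0135) and by 0.58 against ALA (adjusted p = 0.0211). Tbx2, a T-box repressor of senescence genes, rose by 0.57 (adjusted p = 0.0360) and 0.60 (adjusted p = 0.0288). Cdk2, a cell cycle kinase, fell by 0.70 on the log2 scale against ALA (adjusted p = 0.0220), the only fall of the list. Thus 3 rose and 1 fell there, beside 10.7% and 13.4% of all genes. Cited1 in X-ray against control was lost without control replicate 2 or 4 or X-ray replicate 1, 2 or 4 (1.49 to 1.67, adjusted p = 0.0635 to 0.0747). Against ALA it was lost without ALA replicate 2, 3 or 4 or combined replicate 2, 3 or 4 (adjusted p up to 0.0764), and Tbx2 and Cdk2 were lost there without ALA replicate 1, 3 or 4 or combined replicate 3, and Cdk2 also without combined replicate 4 (up to 0.0801 and 0.0616). Against control Tbx2 was lost without control replicate 2, 3 or 4 or combined replicate 1, 2 or 3 (0.40 to 0.63, adjusted p up to 0.103), and with a normexp background (0.37, adjusted p = 0.105).

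Markers of undifferentiated melanoma were a list of 11, of which 8 were measured, and 2 rose and 1 fell in the combined group against control (median 0.59, all genes -0.08), again beside 9.77% and 15.1% of all genes. Axl, a receptor kinase of invasive cells, rose by 1.02 (SE 0.21, adjusted p = 0.0070), with no overlap, as for 20.6% of all genes. Jun, of the AP-1 factor, rose by 1.04 (SE 0.33, adjusted p = 0.0358). Aqp1, a water channel, fell by 0.61 on the log2 scale (adjusted p = 0.0426) and by 0.98 in X-ray against control (adjusted p = 0.0286). Against ALA 3 rose and none fell, beside 10.7% and 13.4% of all genes. They were Axl by 0.67 (adjusted p = 0.0351), Jun by 1.20 (adjusted p = 0.0211) and Egfr, the growth factor receptor (adjusted p = 0.0191). Egfr was above background on 2 of 4 ALA arrays, so its fitted difference of 2.82, or 1.36 with a normexp background (adjusted p = 0.0169), is no measured fold. With that background Axl was 0.53 against control (adjusted p = 0.0242) and 0.41 against ALA (adjusted p = 0.0688). Axl against control held without each tumour. Jun and Aqp1 against control were lost without control replicate 1, 2 or 4 or combined replicate 2 or 4, Jun also without combined replicate 3, and Aqp1 without 4 more tumours (adjusted p up to 0.110 and 0.126), and Aqp1 in X-ray against control without control replicate 1, 2 or 4 or X-ray replicate 1, 2 or 4 (up to 0.0872). Against ALA each of the 3 was lost without ALA replicate 4 or combined replicate 2 or 3 (adjusted p up to 0.0924 for Axl, 0.0622 for Jun and 0.0574 for Egfr), and each without some of the other 5 tumours of the pair.

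Genes of other cells moved with these results, and beyond the 2 fits with a covariate given here their part in them was not tested. The 15 macrophage and monocyte markers were all measured, and 5 rose in the combined group against control, 14 against ALA and 7 against X-ray, with none that fell. Over all genes 9.77%, 10.7% and 1.3% rose and 15.1%, 13.4% and 0.766% fell in these comparisons. Summed on the linear scale, the macrophage markers lay between 65.4 and 123 in control tumours and between 13.6 and 43.5 in ALA tumours. They lay between 20.5 and 124 in X-ray tumours and between 161 and 318 in combined tumours, the last above all others. On the mean log2 level, however, combined replicate 1 (0.95) lay below control replicate 4 (1.23) and X-ray replicate 1 (1.51). Of 15 fibroblast and matrix markers 3 rose against control and 11 against ALA, with summed levels of 58.2 to 137, 40.3 to 138, 65.6 to 131 and 109 to 529 in the same order of groups. Skeletal muscle markers (14 of 15 measured) had 0 calls, and their summed level ranged from 1.58 to 380 in control and from 1.70 to 1137 in combined tumours. Of 11 T and NK cell markers 4 were measured and 2 rose against control, while Cd4 and Cd8a did not pass the filter on dim probes. No endothelial (9 of 10 measured), keratinocyte (4 of 10), adipocyte (6 of 8) or erythroid marker (4 of 4) was called against control, while 3 of the 4 erythroid markers fell against ALA. The summed erythroid level was 280 to 698 in ALA tumours, 60.1 to 173 in control, 26.1 to 819 in X-ray and 23.4 to 54.7 in combined tumours, so that the combined group lay below both ALA and control without overlap. A fit took the mean log2 level of the muscle markers as a covariate. In it Tyrp1 differed by 0.49 (adjusted p = 0.0178) and Mitf by -0.75 (adjusted p = 0.0264) from control, and both passed. Against ALA, Tyrp1 differed by 0.33 in that fit (adjusted p = 0.182) and Mitf by -0.34 (adjusted p = 0.424), Pax3 (-0.89, adjusted p = 0.0328) and Gpnmb (1.15, adjusted p = 0.0102) passed, and Sox9 did not (1.17, adjusted p = 0.0940). With the macrophage level of each array as a covariate, which was chosen after seeing the data, Tyrp1 differed by 0.57 in the combined group against control (adjusted p = 0.0653) and Mitf by -0.49 (adjusted p = 0.232), and neither passed. Pax3 (-0.99, adjusted p = 0.0416), Sox9 (2.05, adjusted p = 0.0316) and Gpnmb (1.02, adjusted p = 0.0271) passed in that fit, while Cited1 (1.52, adjusted p = 0.0543), Axl (0.70) and Tfeb (-0.61, both adjusted p = 0.0889) did not. In the combined group against ALA, where the macrophage levels of the groups do not overlap, Mitf was -0.58 without and 0.16 with this covariate (adjusted p = 0.992). Tyrp1 was 0.39 without and 0.51 with it (adjusted p = 0.985). That fit kept 0 of 17 calls of the other pathway lists, and even Gpnmb missed the threshold (0.99, adjusted p = 0.985). A missed threshold there does not single out Mitf.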

How the data were processed

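Whole-tumour RNA of 16 B16-BL6 tumours was labelled with Cy3 and hybridised to 1-colour Agilent arrays. Each deposited scanner file holds linear intensity, namely the processed signal from which Agilent Feature Extraction had subtracted background (version 10.7.3.1 per the file headers, 9.5.3.1 per the submitters' processing notes), with quality flags as other values. The deposited value table holds intensity that was quantile normalised, each column with a median of 31.9, and served as an alternative. The log2 processed signal minus the 75th percentile of each array's 43379 non-control spots was used, and unflagged spots of a probe were averaged. Of 41174 probes, 39 with no usable spot on an array were left out. Kept were 21632 probes flagged as well above background on 4 or more arrays, 1 per gene by highest mean (15399 genes). Names came from accessions (26844 probes), symbols (2891), older symbols (350) or the file (11050).

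Group means were fitted with limma 3.58.1 in R 4.3.3 (12 residual and 2.35 prior degrees of freedom) on all 16 arrays and adjusted by Benjamini-Hochberg within each of 6 comparisons, over genes or, for second probes, over probes. The procedure was checked on simulated data. The pigment genes and all lists were chosen with earlier results of these data known. Beside the members, genes that passed are named, at most 4 per list, direction and comparison by smallest p, with Foxd3 and Ctnnb1 added in a plot. The alternatives tried were quantile or median scaling, a normexp background (offset 50), a percentile over bright spots, the authors' table, other filters, every probe, a slide block, trend and robust moderation, array weights, skeletal muscle or macrophage covariates, only the arrays compared, single slides and each array left out.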

Additional observations from a re-analysis of the deposited data

Results flagged for a closer look

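In 4 of 52 sets of 4 tumours (13 probes in 4 groups), 1 tumour lay far from the other 3 by Dixon's criterion, which chance alone meets in about 1 in 20 sets. ALA replicate 3 was the lowest ALA tumour for Mitf on the main probe (3.28, the others 3.50 to 3.54) and for Sox10 on the main probe (5.09, the others 5.45 to 5.46). Control replicate 4 was the lowest control tumour on the second Mitf probe (-1.22, the others -0.90 to -0.85). X-ray replicate 1 was the lowest X-ray tumour for Oca2 (2.25, the others 2.72 to 2.81).

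Tfec was the only gene of the members and pathway lists that passed in the interaction of ALA and X-ray. Its effect of ALA was larger by 3.32 on the log2 scale in irradiated than in other tumours (SE 0.75, adjusted p = 0.0494). It was well above background on 5 of 16 arrays, 4 of them of the combined group, so this size is no measured fold, and it was 0.60 with a normexp background (adjusted p = 0.249). The call was lost without any 1 of 12 tumours (2.99 to 3.42, adjusted p = 0.0808 to 0.110) and kept without control replicate 1, ALA replicate 2, X-ray replicate 1 or combined replicate 1.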

How the results depend on the processing

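Over 30 alternatives Tyrp1 kept its direction in the combined group against control in 30 (0.36 to 0.60, called in 27) and Mitf in 30 (-1.0 to -0.49, called in 24), while Tyrp1 against ALA was called in 19 (0.20 to 0.51). The number of pigment genes called in X-ray against control, 0 as reported, was 1 with quantile scaling, the percentile over bright spots, the authors' table, trend and robust moderation or only the arrays compared (Tyrp1 each time), 2 with array weights (Slc45a2 too), and 0 to 1 with 1 array left out (Tyrp1 without combined replicate 3). Between the combined group and X-ray it went from 0 to 1 with array weights and was 0 to 1 with 1 array left out (Sox10 without combined replicate 1). In the combined group against control it went from 2 to 1 with median scaling and to 0 with the macrophage covariate or only the arrays compared, to 3 with a normexp background, quantile scaling, the percentile over bright spots or the authors' table (Slc45a2 gained) or array weights (Sox10 gained), and was 1 to 3 with 1 array left out. In the combined group against ALA it went from 1 to 2 with a normexp background (Slc45a2 gained) or array weights (Mitf and Sox10 gained, Tyrp1 lost), to 0 with median scaling, no filter on dim probes, the muscle or macrophage covariate or only the arrays compared, and was 0 to 3 with 1 array left out. Against ALA, Axl turned to -0.030 and Egfr to -0.74 with the macrophage covariate. Median scaling moved the median of all genes by -0.12 in ALA against control. Of 14 calls in the other pathway lists against control, 10 were kept with a normexp background, 8 with median scaling, 7 without the filter, 3 with the macrophage covariate and 7 with only the arrays compared; of 17 against ALA it was 15, 10, 8, 0 and 7, and 3 with the muscle covariate. The causes were not tested.

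With slide as a replicate block the count of pigment genes called did not change: 0, 0, 0, 2 and 1 in the 5 comparisons and 0 in the interaction, with adjusted p = 0.0164 for Tyrp1 and 0.0249 for Mitf in the combined group against control. Deviations of arrays of 1 slide correlated at -0.46 to 0.54, so the numbers were not taken as pairing the samples. Over the alternatives all genes called ranged from 293 to 6442 in the combined group against control (3828 as reported) and from 0 to 6438 against ALA (3713). They ranged from 1 to 2963 in X-ray against control (519) and from 0 to 3135 in the combined group against X-ray (318). The counts of pigment genes under the alternatives are to be read beside these ranges. With 4 tumours per group, precision is limited by their number.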

Other observations

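The mean of the 10 pigment genes, each centred on its own mean, ran from -0.24 to 0.21 over the 16 tumours. The 5 other genes whose levels correlated best with it, of 10256 genes above background on all 16 arrays, were Atp5j, a subunit of the mitochondrial ATP synthase (Pearson r 0.92, Spearman rho 0.93), Mmgt2, a membrane magnesium transporter (0.90, 0.88), Cdip1, a p53-linked cell death gene (0.88, 0.83), Kidins220, a scaffold of neurotrophin receptors (0.88, 0.89), and Ldhb, a lactate dehydrogenase subunit (0.87, 0.84). Without the 2 tumours farthest from the median, X-ray replicate 4 and combined replicate 4, r was 0.80 to 0.89. These points share arrays and scaling, and the genes were picked as the highest of all, so the values are a description. None of the 5 differed in the combined group against control (-0.13 to 0.06, adjusted p = 0.560 to 0.958 in limma).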
